A study of Arabidopsis thaliana with 6 samples.

Results

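The 53 genes described here encode 5 machines of the early secretory pathway in Arabidopsis thaliana: the SEC61 translocon (9 genes), the signal recognition particle and its receptor (9), the oligosaccharyltransferase (10), the COPII coat (14) and the COPI coatomer (11). They were chosen by gene identifier from 23022 genes listed in at least 1 library. Polyadenylated RNA was sequenced from whole seedlings after 10 days on vertical half-strength MS plates, in 3 libraries of the mutant 17ab and 3 libraries of wild type (WT). The labels give neither the genes and alleles mutated in 17ab nor the strain, the number of seedlings per library or any stress treatment, and the series title places the study in the unfolded protein response. Transcripts of 3 stress sensors of the endoplasmic reticulum (ER) were lower in 17ab, with log2 fold changes of -2.43 ± 0.14 for bZIP17 (SE, edgeR adjusted p = 1.22e-06), -1.68 ± 0.11 for IRE1A (2.98e-06) and -0.73 ± 0.12 for IRE1B (0.00135). The transcription factor genes bZIP28 (0.16 ± 0.10, adjusted p = 0.348) and bZIP60 (0.23 ± 0.12, adjusted p = 0.257) did not pass the threshold.

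Proteins that enter the secretory pathway are recognised on the ribosome by the signal recognition particle, handed to its receptor on the ER membrane and threaded through the SEC61 channel. Oligosaccharyltransferase attaches a preassembled glycan to asparagines of the emerging chain. Folded cargo leaves in COPII vesicles, whose assembly the GTPase SAR1 starts, and COPI vesicles return escaped proteins from the Golgi. Many genes of these machines are known targets of the unfolded protein response, through promoter elements bound by bZIP factors.

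Libraries held 6261789 to 6292461 expected counts in 17ab and 5968854 to 6198230 in WT, so that the floor of 3 counts stood at 0.477 to 0.503 CPM (counts scaled to the library total). Leaf genes (RBCS1A, CAB1, RCA, PSBQ-2, LHCA3) were abundant in every library, the root genes SHR, SCR and GL2 and the phosphate transporter PHT1;1 were listed in every library, and the seed storage genes were at 0 to 2.55 FPKM. Among these markers PHT1;1 rose (1.01 ± 0.17, edgeR adjusted p = 0.0015), GL2 (-0.35 ± 0.10, adjusted p = 0.0278) and CRA1 (-1.50 ± 0.38, adjusted p = 0.0176) fell, and the root hair gene COBL9 was at 0.14 to 0.21 FPKM in 17ab and was not listed in WT. Their part in the results on the secretory machines was not tested. WT replicate 1 stood apart in these genes: it had the lowest WT level for 32 of the 48 tested members. Its median log2 deviation from each member's mean over all 6 libraries was -0.10, beside 0.03 and 0.01 for WT replicates 2 and 3. In bulk seedling RNA fewer cells of a type and less RNA per cell cannot be told apart.

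Of the 53 members 48 passed the filter on low counts and 6 changed (12.5%; threshold of 0.05 for the adjusted p of edgeR's quasi-likelihood test), against 14.1% of all 17854 tested genes. In all, 5 members fell (10.4%, against 6.51% of all tested genes) and 1 rose (2.1%, against 7.57%). The falls numbered 3 without 17ab replicate 2, 17ab replicate 3, WT replicate 2 or WT replicate 3, 4 without WT replicate 1, and 3 in DESeq2 or with the replicate number as a block. No member rose in any of those fits or without 17ab replicate 1. The falls were those of the translocon genes AT5G50460 and AT4G24920, the oligosaccharyltransferase gene AT1G61790, the COPII GTPase gene SAR1B and the SEC23 family gene AT4G01810, and the rise was that of the SEC16 gene AT5G47480. The median log2 fold change of the tested members was 0.02, and their median absolute change 0.09, beside -0.002 and 0.17 over all tested genes. Without WT replicate 1 the median of the members was -0.01. FPKM (fragments per kilobase of transcript, scaled to the library total) lay above every WT library in all 3 17ab libraries for 6 members (18.2% of all tested genes) and below for 5 members (12.9% of all tested genes), and the groups overlapped for the other 37. For 38 of the 42 tested members that did not pass, the 95% interval of the log2 fold change lay within ±0.5. Reads were divided between genes in at least 1 library for 18 of the 53 members, and 12 members overlap another annotated gene.

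**Figure D1:**
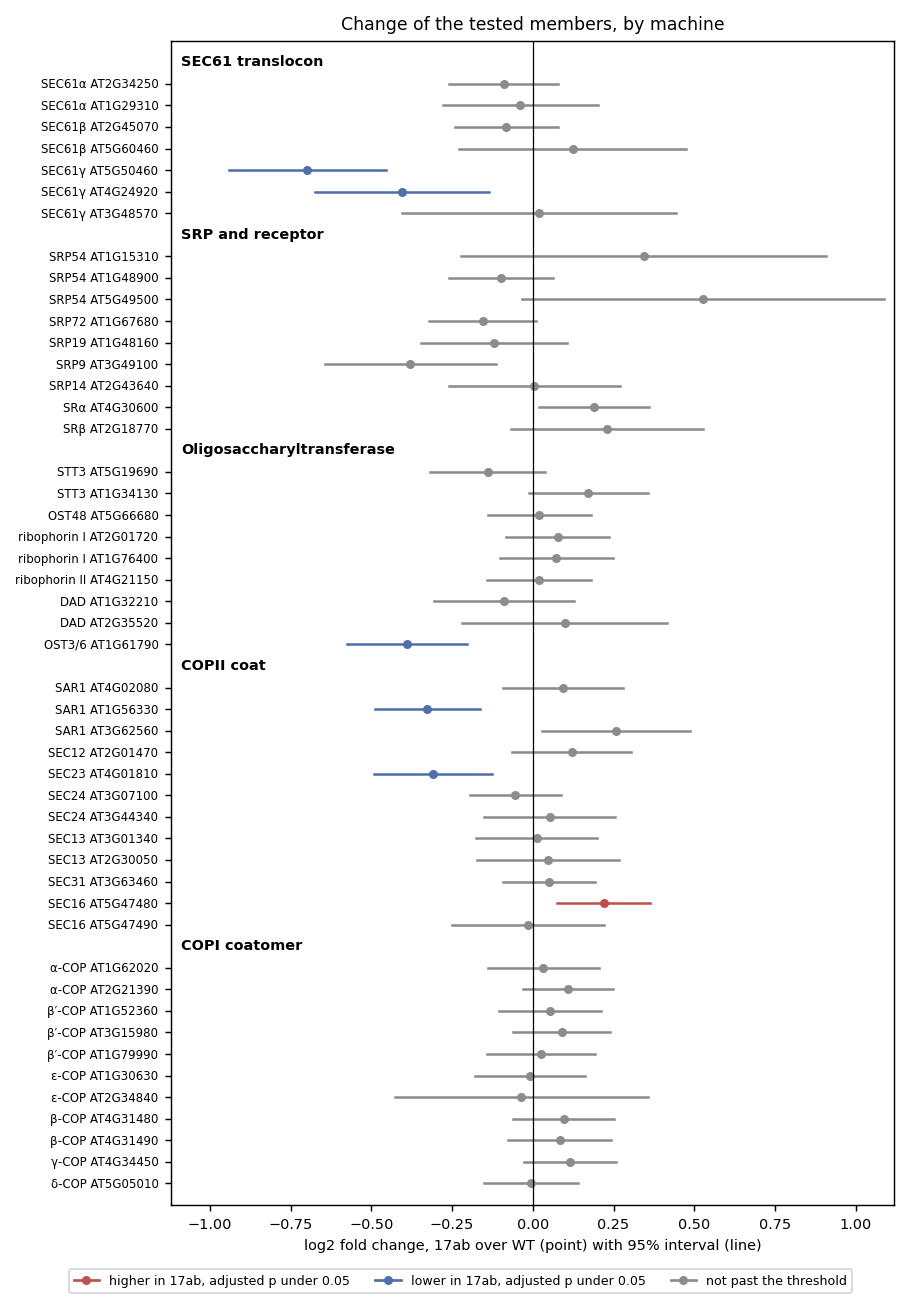
Log2 fold change of 17ab over WT (horizontal axis) for the 48 tested members, by machine, with points for edgeR's estimate and lines for its 95% interval. Intervals of the 5 members that fell lie left of 0 and that of AT5G47480 right of 0, and the COPI intervals are all within ±0.5.

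The 3 members with the smallest p are shown by the 200 bases before their annotated start, since elements bound by bZIP factors of the unfolded protein response lie in such regions. They are given 5′ to 3′ on the gene's strand from RefSeq TAIR10.1, at chr5:20552671-20552870 (minus strand) for AT5G50460, chr1:22814016-22814215 (plus strand) for AT1G61790 and chr1:21088555-21088754 (minus strand) for SAR1B, with capitals for the elements found.
SEC61γ AT5G50460: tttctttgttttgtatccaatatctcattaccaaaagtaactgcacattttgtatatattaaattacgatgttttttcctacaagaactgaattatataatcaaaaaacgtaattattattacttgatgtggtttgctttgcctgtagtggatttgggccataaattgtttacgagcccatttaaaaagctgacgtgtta
OST3/6 AT1G61790: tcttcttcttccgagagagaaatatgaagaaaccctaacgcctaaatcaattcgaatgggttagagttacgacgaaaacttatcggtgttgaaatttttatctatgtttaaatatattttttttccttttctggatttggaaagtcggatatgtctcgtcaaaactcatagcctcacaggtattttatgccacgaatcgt
SAR1B AT1G56330: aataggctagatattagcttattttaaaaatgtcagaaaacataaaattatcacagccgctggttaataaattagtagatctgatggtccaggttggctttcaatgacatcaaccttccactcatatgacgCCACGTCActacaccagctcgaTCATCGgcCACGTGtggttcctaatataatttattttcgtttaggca
In SAR1B the capitals mark, in order, the unfolded protein response element UPRE (TGACGTG then G or A, here on the other strand), UPRE-III (TCATCG) and a G-box (CACGTG). No element searched for was found in the 200 bases of AT5G50460 or of AT1G61790, but AT1G61790 held the ER stress element ERSE-I (CCAAT, any 9 bases, CCACG) from base 23 of its transcript, at chr1:22814238-22814256 on the plus strand, with the fixed letters in capitals.
AT1G61790, ERSE-I: CCAATaaaaacgttCCACG

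Both strands of 300 bases (250 before the start, 50 after) were searched for these elements and for ERSE-II (ATTGG, any base, CCACG). Both ER stress elements and, read on the other strand, the UPRE that ends in G hold the letters CCACG. The ER stress elements and the UPRE can overlap a G-box, and UPRE-III cannot. ERSE-I was found in 2 of 53 members (3.8%) and 0.4% of 27443 gene windows, in AT1G61790 and in the little-expressed SEC61β gene AT3G60540. It overlapped a G-box in both, at base 38 of the transcript in AT1G61790, which held a second G-box at base 8. The UPRE was found in 2 members (3.8%) and 2.16% of all windows, in SAR1B and in AT4G01810. UPRE-III and the G-box were each found in 8 members (15.1%), against 8.63% and 7.68% of all windows, and ERSE-II was found in none (0.07% of all windows). Of the 4 members with ERSE-I or the UPRE, 3 were tested, and these 3 are among the 5 that fell. One of them, AT4G01810, passed in only 6 of the 15 alternative fits. Of the 8 members with UPRE-III only SAR1B passed the threshold, and of the 8 with a G-box only SAR1B and AT1G61790 did. The others with these elements did not pass or were not tested. Of all 521 tested genes with either element, 44 fell (8.4%) and 35 rose (6.7%), beside 6.5% and 7.6% of the 17297 tested genes without. A match of letters is a description of the window and no evidence of binding.

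The signal recognition particle binds the signal sequence of a nascent chain through its GTPase SRP54 and docks on a receptor of a GTPase subunit, SRα, and a membrane anchor, SRβ. None of its 9 tested members passed the threshold in edgeR, beside 14.1% of all tested genes, and none passed in DESeq2. An unadjusted edgeR p under 0.05 was found for 2, and the share of all tested genes at that cut was not counted. Log2 fold changes of the 9 ran from -0.38 to 0.53 with a median of 0.005. The largest change in size was that of the SRP54 gene AT5G49500, which had 2.72, 3.79 and 3.24 FPKM in 17ab and 2.78, 1.72 and 2.36 FPKM in WT (0.53 ± 0.26, adjusted p = 0.21). The groups of AT5G49500 overlapped, and the gene supplied a small part of the SRP54 transcripts, 8.29% ± 1.03 in 17ab and 5.94% ± 1.56 in WT (SD, n = 3 each). The main SRP54 gene AT1G48900 averaged 32.7 FPKM in 17ab and 34.0 FPKM in WT.

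The gene for SRα, AT4G30600, had the highest level of this machine, with 48.6, 48.6 and 44.5 FPKM in 17ab and 38.4, 38.8 and 45.3 FPKM in WT. One WT library reached into the 17ab range, and the change of 0.19 ± 0.08 did not pass (adjusted p = 0.136). AT2G18770, of the family of SRβ, had 12.8, 13.1 and 12.4 FPKM in 17ab and 8.93, 11.6 and 11.5 FPKM in WT, with no overlap and no call (0.23 ± 0.14, adjusted p = 0.31). SRP9 (AT3G49100), a subunit of the Alu domain, was near the threshold from the other side. It had 15.5, 13.4 and 15.1 FPKM in 17ab and 18.5, 18.1 and 18.4 FPKM in WT (-0.38 ± 0.12, adjusted p = 0.057). The annotation places 477 of its bases over AT3G49080 on the opposite strand, and whether the counting used strand is not given, so that reads of both cannot be told apart. SRP72, SRP19 and SRP14 had fold changes of -0.16, -0.12 and 0.005.

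The SEC61 channel consists of the pore subunit SEC61α and the small subunits SEC61β and SEC61γ. Of its 7 tested members 2 fell (28.6%, against 6.51% of all tested genes), the γ genes AT5G50460 and AT4G24920. The other 5 did not pass and lay between -0.09 and 0.12. AT5G50460 had 33.1, 30.2 and 31.4 FPKM in 17ab and 40.9, 54.1 and 56.2 FPKM in WT. Every 17ab library was below every WT library, and WT replicate 1 was the lowest of WT. The log2 fold change was -0.70 ± 0.11 (edgeR adjusted p = 0.00139), the largest in size of the 48 members, and -0.82 without WT replicate 1. It passed the threshold in all 15 alternative fits, with adjusted p between 0.000166 and 0.00971.

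AT4G24920, the second γ gene, had 33.1, 28.9 and 29.4 FPKM in 17ab and 31.8, 42.2 and 45.4 FPKM in WT. Here WT replicate 1 fell inside the 17ab range, so the groups overlapped. The change of -0.41 ± 0.13 was just past the threshold (adjusted p = 0.0467). It passed in 5 of the 15 alternative fits, and not without 17ab replicate 2, 17ab replicate 3, WT replicate 2 or WT replicate 3 (adjusted p = 0.11 to 0.189), while without WT replicate 1 it was -0.54 (adjusted p = 0.013). The third γ gene, AT3G48570, averaged 10.8 ± 2.7 FPKM in 17ab and 10.4 ± 0.5 FPKM in WT (0.02 ± 0.20). The coding sequences of the γ genes, each of 210 bases, are 80.5% to 89.5% identical. The counts of these genes were whole numbers in every library, which shows no reads divided as fractions. The program behind the counts is not stated, so how it treated reads shared by these genes is unknown.

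Summed over its 3 genes, SEC61γ had 75.5, 73.1 and 69.9 FPKM in 17ab and 83.4, 107.1 and 111.4 FPKM in WT, with no overlap and a ratio of 0.724. AT5G50460 made up 41.4% to 45.0% of that sum in 17ab libraries and 49.02% to 50.53% in WT libraries. SEC61α summed to 148.3 ± 3.6 FPKM in 17ab and 154.5 ± 19.1 FPKM in WT, and SEC61β to 115.5 ± 8.8 FPKM in 17ab and 120.3 ± 2.7 FPKM in WT, and both overlapped. The gene with the highest level, the SEC61α gene AT2G34250, had 131.6, 124.4 and 131.5 FPKM in 17ab and 116.7, 144.3 and 144.7 FPKM in WT (-0.09 ± 0.08, adjusted p = 0.506). Its 17ab libraries lay between the WT libraries. AT1G78720 (SEC61α) and AT3G60540 (SEC61β) were too low to be tested, with at most 1 and 16 expected counts in a library.

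**Figure D2:**
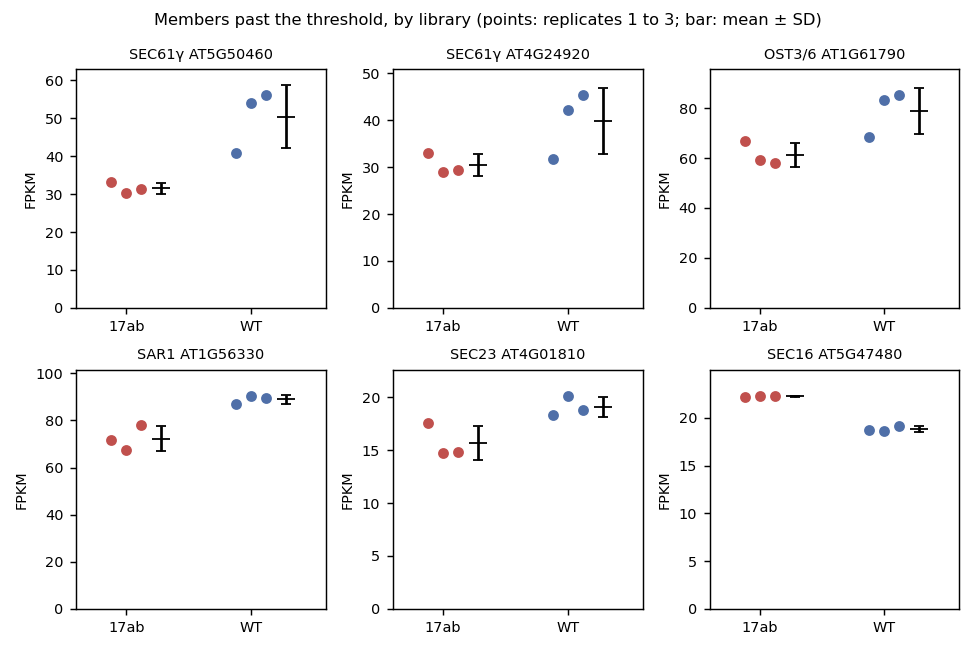
FPKM (vertical axes, starting at 0) of the 6 members that passed the threshold, with points for the 3 libraries of 17ab (left) and the 3 of WT (right) and bars for mean ± SD. Groups overlap for AT4G24920, whose lowest WT library has 31.8 FPKM, and not for the other 5 genes.

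The oligosaccharyltransferase transfers the glycan with its catalytic subunit STT3, and its OST3/6 subunit carries a thioredoxin fold. AT1G61790, the gene that supplied nearly all OST3/6 transcripts, was the one member of this machine that changed. It was 1 of 9 tested (11.1%, against 14.1% of all tested genes). It had 66.8, 59.2 and 58.1 FPKM in 17ab and 68.4, 83.1 and 85.3 FPKM in WT, with every 17ab library below every WT library and WT replicate 1 close to 17ab replicate 1. The log2 fold change was -0.39 ± 0.09 (edgeR adjusted p = 0.00938), or -0.47 without WT replicate 1, and the gene passed in all 15 alternative fits (adjusted p = 0.00387 to 0.0487). Its paralog AT1G11560 was listed in WT replicate 1 alone, with 2 expected counts, and was not tested.

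The other 8 tested subunit genes lay between -0.14 and 0.17, each with an interval within ±0.5. OST48 (DGL1), a core subunit, averaged 56.7 ± 3.6 FPKM in 17ab and 54.9 ± 3.3 FPKM in WT (SD, n = 3 each). Ribophorin II (HAP6) averaged 52.0 ± 2.3 FPKM in 17ab and 50.5 ± 4.7 FPKM in WT. The DAD pair, small core subunits, summed to 52.9 ± 3.1 FPKM in 17ab and 52.1 ± 3.0 FPKM in WT. The ribophorin I pair summed to 77.1 ± 2.0 FPKM in 17ab and 71.9 ± 5.3 FPKM in WT. Summed per subunit over both genotypes, OST48, ribophorin I, ribophorin II, DAD, STT3 and OST3/6 ranged from 51.3 to 74.5 FPKM.

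The catalytic pair summed to 62.0 ± 3.5 FPKM in 17ab and 62.5 ± 6.7 FPKM in WT, which overlap, with a different split. STT3A had 41.6, 37.4 and 41.6 FPKM in 17ab and 38.0, 44.8 and 47.8 FPKM in WT (-0.14 ± 0.08, adjusted p = 0.304). STT3B had 22.4, 20.6 and 22.3 FPKM in 17ab and 17.6, 18.2 and 21.1 FPKM in WT (0.17 ± 0.09, adjusted p = 0.216). As a share of the pair, STT3B stood at 35.0%, 35.5% and 34.9% in 17ab and 31.6%, 28.9% and 30.7% in WT, without overlap. Neither gene passed its own test, and the share itself was not tested.

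COPII assembly starts when the exchange factor SEC12 loads SAR1 with GTP, and SAR1 then recruits the inner coat of SEC23 and SEC24 and the outer coat of SEC13 and SEC31 at sites marked by SEC16. SAR1B and AT4G01810 fell and the SEC16 gene AT5G47480 rose, 3 of 12 tested members (25.0%, against 14.1% of all tested genes). SAR1B had 71.7, 67.3 and 78.0 FPKM in 17ab and 87.0, 90.5 and 89.5 FPKM in WT, with a clear gap between the groups. The log2 fold change was -0.33 ± 0.08 (edgeR adjusted p = 0.0118). The call held when any 1 library was left out and in 14 of the 15 alternative fits, the exception being the GC and length correction with the replicate number as a block (-0.27, adjusted p = 0.0585).

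The other SAR1 genes did not pass. SAR2 (AT4G02080) averaged 68.7 ± 3.3 FPKM in 17ab and 63.2 ± 5.9 FPKM in WT (0.09 ± 0.09), and AT3G62560 had 26.4, 28.2 and 29.8 FPKM in 17ab and 21.0, 23.1 and 25.2 FPKM in WT (0.26 ± 0.11, adjusted p = 0.133). The 4 genes together stood at 171.6, 162.4 and 175.9 FPKM in 17ab and 173.6, 181.7 and 172.0 FPKM in WT, which overlap. Within that sum SAR1B supplied 41.8%, 41.4% and 44.3% in 17ab and 50.1%, 49.8% and 52.1% in WT. SAR2 supplied 38.6% to 42.2% in 17ab and 32.9% to 37.5% in WT, and AT3G62560 15.4% to 17.3% in 17ab and 12.1% to 14.7% in WT. The fourth gene, SARA1A, had at most 5 expected counts in a library and was not tested.

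**Figure D3:**
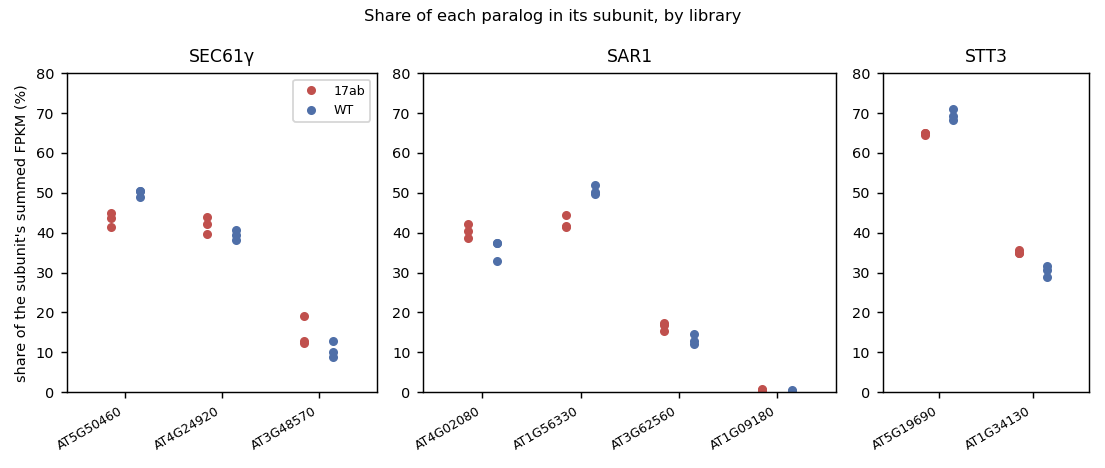
Share of each paralog in the summed FPKM of SEC61γ, SAR1 and STT3 (vertical axes, percent), with 17ab left and WT right in each pair and a point for each library. SAR1B (AT1G56330) and STT3A (AT5G19690) have lower shares in every 17ab library than in any WT library, and STT3B (AT1G34130) has higher ones.

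AT4G01810, annotated as a SEC23/SEC24 family protein, had 17.6, 14.7 and 14.8 FPKM in 17ab and 18.4, 20.1 and 18.8 FPKM in WT, without overlap. The change of -0.31 ± 0.09 passed (adjusted p = 0.0283) and held in 6 of the 15 alternative fits, but not without 17ab replicate 2, 17ab replicate 3 or any WT library (adjusted p = 0.0592 to 0.103). It shares 26 annotated bases on the same strand with its neighbour AT4G01800, which did not pass (-0.16, adjusted p = 0.129). The 6 other SEC23 genes that were measured all lay between 0.01 and 0.18 and did not pass. Summed over the 7 genes, SEC23 had 117.5 ± 5.4 FPKM in 17ab and 112.2 ± 7.3 FPKM in WT, which overlap.

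AT5G47480, known as MAG5 and a scaffold of ER exit sites, had 22.2, 22.3 and 22.3 FPKM in 17ab and 18.7, 18.6 and 19.2 FPKM in WT. Its groups were far apart for their small spread, with a change of 0.22 ± 0.07 (adjusted p = 0.0431). The call was lost when any 1 library was left out (adjusted p = 0.0614 to 0.15), and under 13 of the 15 alternatives in all. Its neighbour and paralog AT5G47490 is 86.6% identical over the coding sequence and did not pass (-0.02 ± 0.11). Reads were divided between genes for both in all 6 libraries, so the level of each is uncertain, and their sum was 28.4 ± 0.5 FPKM in 17ab and 24.9 ± 1.0 FPKM in WT.

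The remaining COPII genes lay between -0.05 and 0.12. SEC12 (STL2P, AT2G01470) had 28.4, 28.4 and 25.6 FPKM in 17ab and 24.3, 24.9 and 25.2 FPKM in WT (0.12 ± 0.09, adjusted p = 0.403). The SEC24 pair ERMO2 and CEF summed to 66.6 ± 3.4 FPKM in 17ab and 65.8 ± 4.6 FPKM in WT, and the 2 SEC13 genes to 67.1 ± 6.2 FPKM in 17ab and 64.6 ± 1.8 FPKM in WT. Of the SEC31 genes AT3G63460 supplied over 99% of the transcripts in every library (0.05 ± 0.07), and AT1G18830 had at most 8 expected counts and was not tested.

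The COPI coatomer has an outer layer of α-, β′- and ε-COP and an adaptor layer of β-, γ-, δ- and ζ-COP. None of its 11 tested members passed in edgeR, beside 14.1% of all tested genes, and none passed in DESeq2. None had an unadjusted edgeR p under 0.05, and all 11 intervals lay within ±0.5. The fold changes ran from -0.04 to 0.12 with a median of 0.05, 8 above 0 and 3 below. The γ-COP gene AT4G34450 had the largest, with 79.1, 78.3 and 83.9 FPKM in 17ab and 68.2, 76.3 and 74.3 FPKM in WT (0.12 ± 0.07, adjusted p = 0.289), its 17ab libraries above all of WT. The α-COP gene AT2G21390 was the other member without overlap (0.11 ± 0.06, adjusted p = 0.307). The δ-COP gene AT5G05010, with the highest mean level over the 6 libraries for a COPI gene, had 82.6, 74.7 and 80.7 FPKM in 17ab and 79.4, 77.6 and 77.5 FPKM in WT, and 17ab spanned WT (-0.01 ± 0.07).

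The 6 coatomer subunits among the members stood close together in level, from 62.0 FPKM for ε-COP to 90.4 FPKM for β′-COP as means of both genotypes. The β-COP genes AT4G31480 and AT4G31490 are tandem copies with 96.5% identical coding sequences and divided reads in every library, so that their sum is the firmer value: 86.1, 82.7 and 89.9 FPKM in 17ab and 75.9, 82.3 and 79.6 FPKM in WT. Reads were also divided for the α-COP pair, for the β′-COP genes AT1G52360 and AT3G15980, and for the ε-COP gene AT2G34840. Paralog shares within α-, β-, β′- and ε-COP overlapped between the genotypes.

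**Figure D4:**
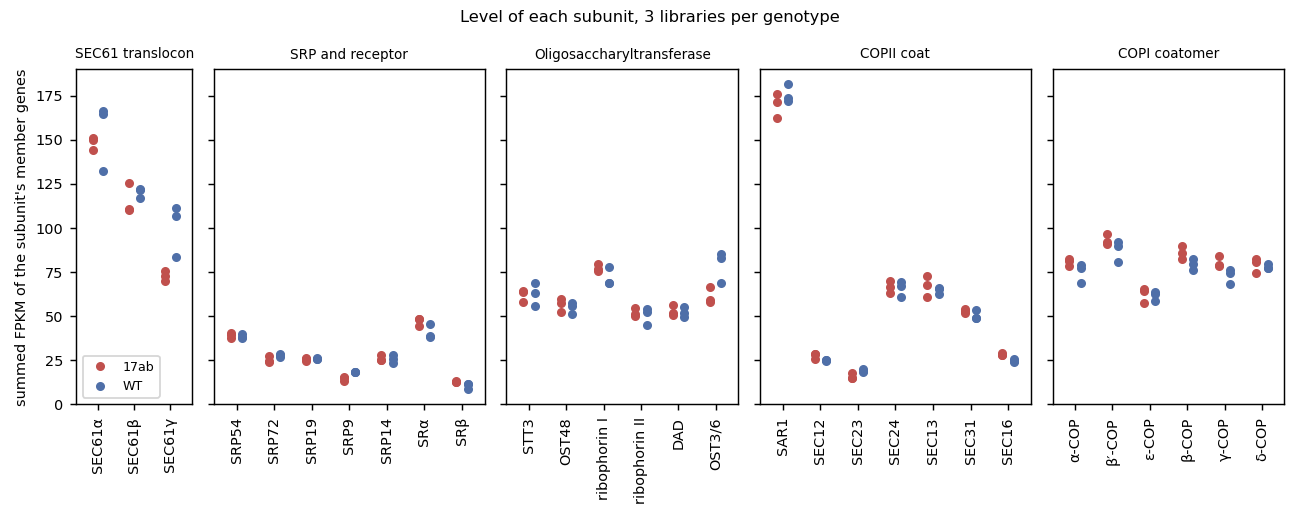
Summed FPKM of the member genes of each subunit (vertical axis, starting at 0), with 17ab left and WT right for each subunit and a point for each library. SEC61γ and OST3/6 are lower in every 17ab library, at 69.9 to 75.5 and 58.1 to 66.8 FPKM, and most other subunits overlap.

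Summed over whole machines, all 5 sums overlapped between the genotypes, with ratios of 17ab to WT from 0.897 to 1.06. Those of the translocon and the oligosaccharyltransferase overlapped only through WT replicate 1. It had 337.7 FPKM for the translocon, beside 394.9 and 393.5 in WT replicates 2 and 3 and 327.9 to 351.0 in 17ab. For the oligosaccharyltransferase it had 338.9 FPKM, beside 387.8 and 386.1 in WT replicates 2 and 3 and 356.6 to 371.4 in 17ab. The translocon had 336.5 ± 12.6 FPKM in 17ab and 375.4 ± 32.6 FPKM in WT, a ratio of 0.897. The particle and its receptor had 191.0 ± 1.5 FPKM in 17ab and 187.9 ± 7.7 FPKM in WT (1.02), and the oligosaccharyltransferase 362.0 ± 8.2 FPKM in 17ab and 371.0 ± 27.8 FPKM in WT (0.976). COPII had 428.2 ± 11.6 FPKM in 17ab and 425.3 ± 8.3 FPKM in WT (1.01), and COPI 482.1 ± 16.9 FPKM in 17ab and 454.4 ± 20.2 FPKM in WT (1.06). Of 29 subunits, 4 lay below WT in all 17ab libraries (SEC61γ, SRP9, OST3/6 and the SEC23 member), 5 lay above (SRβ, SEC12, SEC16, β-COP and γ-COP) and 20 overlapped. Among all tested genes, each taken singly, 12.9% lay below and 18.2% above.

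Other genes of the same pathways were read from 3 lists. None of 15 import partners passed in edgeR or DESeq2 (2 at an unadjusted edgeR p under 0.05), a list with the TRAP subunits, SEC62, the ERDJ2 co-chaperones and the signal peptidase. FPKM of all 17ab libraries lay above all WT libraries for 7 of these 15 and below for 0, beside 18.2% and 12.9% of all tested genes. Of 23 genes of N-glycan assembly and trimming none passed in edgeR or DESeq2 either (3 at an unadjusted edgeR p under 0.05), among them the ALG sugar transferases, the glucosidases GCS1 and RSW3 and the small subunit OST4. The share of all tested genes at that unadjusted cut was not counted, and 14.1% passed in edgeR after adjustment. Of 27 tested COPII and COPI partners, of 32 listed, 1 rose (3.7%, against 7.57% of all tested genes) and 2 fell (7.4%, against 6.51%). Libraries of 17ab lay above all of WT for 3 genes of N-glycan assembly and trimming and 5 of the COPII and COPI partners, and below for 2 and 3. The median log2 fold changes of these lists were 0.08, 0.06 and 0.09.

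GNL1 (AT5G39500), an exchange factor for ARF GTPases at the Golgi, had 8.90, 9.76 and 9.15 FPKM in 17ab and 7.23, 8.14 and 7.45 FPKM in WT (0.29 ± 0.09, adjusted p = 0.0445). ARFA1E (AT3G62290), a GTPase of the family that recruits COPI, had 481.2, 504.3 and 470.9 FPKM in 17ab and 636.5, 571.7 and 524.2 FPKM in WT (-0.28 ± 0.08, adjusted p = 0.0372). The cargo receptor gene p24beta2 (AT3G07680) had 39.3, 36.5 and 40.0 FPKM in 17ab and 44.2, 50.6 and 45.7 FPKM in WT (-0.30 ± 0.08, adjusted p = 0.0267). None of the 3 overlapped between groups, and they passed in 3, 6 and 5 of the 15 alternative fits.

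The ER chaperone BiP was read from 3 genes beside these machines. BIP1 had -0.16 ± 0.09 (adjusted p = 0.285) and BIP2 0.21 ± 0.10 (adjusted p = 0.202), with overlapping groups. Reads were divided between genes for both in all 6 libraries, so the level and the change of each are uncertain. The stress-induced BIP3 rose, with 3.09, 2.26 and 1.82 FPKM in 17ab and 0.54, 0.23 and 0.79 FPKM in WT (2.16 ± 0.39, adjusted p = 0.00279). Its counts were low, at 41, 30 and 24 in 17ab and 7, 3 and 10 in WT, with WT replicate 2 at the floor of 3 counts.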

How the data were processed

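For each library the authors deposited 1 table that gives each gene an FPKM value, a length and an expected count, per the file headers. TAIR10 is the build in the submitters' processing notes, which also list HTSeq 0.6.0, STAR 2.4.0 and DESeq2 without roles. Neither the program behind the expected counts nor any use of strand is stated in the labels or headers. FPKM was used as the authors deposited it. The headers give its name, and the scaling by length and library total is the definition of that unit. Whole numbers made up 91.35% to 91.83% of expected counts (tolerance 1e-06). A gene absent from a table was set to 0.

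Rounded expected counts from all 6 libraries entered 1 quasi-likelihood fit of edgeR 4.0.16 (R 4.3.3) with TMM scaling, its default expression filter and Benjamini-Hochberg adjustment over 17854 genes, which held 99.78% of the counts. Values after ± are SE for log2 fold changes and SD (n = 3) for FPKM. Fold changes come from counts, levels from FPKM. Counts for 17ab against WT were simulated over 17854 genes. The fit recovered 39 of 67 genes at 1.5-fold, 56 of 67 at 2-fold and 62 of 66 at 4-fold, with 11 of 168 calls false. A smaller share of genes was changed than the 14.1% called in the data. Changes below 1.5-fold, the size of those of every called member except AT5G50460, were not simulated. These rates therefore do not describe calls of that size. Since no label says that the libraries are separate cultures, the p-values cover only the spread among these samples, which may be technical. Every pair of libraries differed beyond sampling noise. Floors cover counting error only.

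The files hold no coordinates. Names, positions, overlaps, coding identity (Biopython 1.88) and promoter sequence come from RefSeq TAIR10.1, whose lengths equal those in the files for all 12582 single-transcript genes, and 99.2% of the listed identifiers matched. For SRβ, δ-COP and SEC13 that reference names only a protein family, and their place is that of known homologs.

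The members and the lists were chosen with earlier results of these data known. Genes named with full values are the members past the threshold and, per machine, the tested members with the highest mean FPKM and the largest change in size. SRP9, SRβ, STT3A, STT3B, SEC12 and other members that did not pass were given in full after their values were seen. The alternatives were edgeR with size factors of DESeq2, no filter, a filter of 5 CPM in 3 libraries or more, leaving out 1 library at a time, a block for the replicate number, DESeq2 1.42.0 itself, limma-trend (limma 3.58.1) on log2(FPKM + 1) or log2(FPKM + 0.1) for genes with 1 FPKM or more in 3 libraries, and a loess offset (span 0.5) for GC content and length, alone and with the block.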

Additional observations from a re-analysis of the deposited data

How the results depend on the processing

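None of the 6 members and 3 partner genes that passed the threshold changed direction under any of the 15 alternatives run. AT5G50460, AT1G61790 and SAR1B passed in every fit without 1 library. Across all genes 1604 were called by DESeq2, and 1571 to 2090 without 1 library, against 2515. Of the members, 0 rose without a filter on low counts, when any 1 library was left out, under the block, DESeq2, both limma fits and both GC and length offsets. Members that fell numbered 3 under the block, DESeq2, both limma fits and the offset with the block, and 3 to 5 without 1 library. SEC61 members changed numbered 1 under the block, DESeq2, both limma fits and both offsets, and 1 to 2 without 1 library. COPII members changed numbered 1 under the block, DESeq2, both limma fits and the offset with the block, and 1 to 2 without 1 library. Genes of the other lists changed numbered 1 in DESeq2 and 0 under the block, both limma fits and both offsets, and 0 to 1 without 1 library. The cause was not tested. No pairing of the libraries by replicate number was detected: deviations of same-numbered libraries correlated at -0.002, -0.108 and -0.045. With 3 libraries per genotype such a check cannot exclude one. Under the block 1853 genes were called.

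With 3 libraries per genotype and a biological coefficient of variation of 8.4%, changes the size of those of AT4G24920, AT4G01810 and AT5G47480 sit at the threshold, and 5 members were too low in count to be tested. Machine sums in CPM in place of FPKM gave ratios of 0.918 to 1.07, each within 1 SD of WT of those in FPKM. Leaving out 1 library leaves 2 in its group, whose spread is shared with the other group in the fit. Groups of 3 libraries are too small for a test of outlying libraries.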
